A study of Mus musculus with 6 samples.

Results

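The ligands and receptors of the tumor necrosis factor (TNF) superfamilies were followed in 6 spontaneous mouse tumors. Members were picked by name alone, as the entries of the count table whose symbol begins with Tnfsf or Tnfrsf and a number, with Tnf, Lta, Ltb, Ltbr, Cd40, Cd40lg, Cd27, Cd70, Fas, Fasl, Eda, Edar, Eda2r, Ngfr and Relt added. This gave 46 of 23358 entries, of which 18 were ligands and 28 were receptors. All 46 passed the filter on low counts for both comparisons made below, between the 2 mouse lines and between the 2 tumor sites.

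Each tumor came from a different female mouse, and all mice carried NT3, a form of the kinase NIK (gene Map3k14) that lacks its TRAF3-binding domain. NT3 sits with GFP in the ROSA26 locus and is switched on by Cre. In 3 Osx-Cre;NT3 mice (tumors 13, 18 and 25) the Osterix promoter drove a doxycycline-repressible Cre, and doxycycline was fed until weaning. In 3 FSP1-Cre;NT3 mice (tumors 27, 29 and 36) the S100a4 promoter drove Cre without such control. The NT3 parents were C57Bl/6J, the Osx-Cre parents mixed C57Bl/6J and CD1, and the FSP1-Cre parents FVB/n, so strain background differed along with the Cre. Either Cre is known to act outside its intended cells, FSP1-Cre in myeloid cells and Osx-Cre in blood-forming cells. Tumors 13, 18 and 25 were trunk tumors with latencies of 150, 168 and 115 days. Tumor 29 was also from the trunk (72 days), and tumors 27 and 36 were perineal (101 and 52 days). Both perineal tumors were therefore from the line with the shorter latencies, and line, strain, latency and, in part, site cannot be told apart. The labels give no other treatment. No tumor-free tissue or Cre-negative tissue was analysed here, so values describe levels within tumors and differences among them.

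TNF superfamily ligands are mostly trimeric membrane proteins that can be shed, and their receptors signal through TRAF adaptors or, where they carry a death domain, through TRADD and FADD. A subset of receptors (LTβR, CD40, RANK, BAFF receptor, Fn14, CD27, CD30 and TNFR2) removes the TRAF3 that keeps NIK low. Stabilized NIK then phosphorylates IKKα to start the alternative NF-κB pathway. Since NT3 cannot bind TRAF3, it lies below these receptors in the pathway. NF-κB is in turn known to act on the promoters of several superfamily genes.

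Because NF-κB lies downstream of NIK, the promoters of the members were searched for its recognition sequence. RefSeq promoters on build GRCm38.p6 were found for 36 of the 46 members, in 40 entries. In the 250 bases before the start, the κB consensus was present on either strand in 3 of the 40 entries, 1 each for Ltb, Tnfrsf8 and Tnfrsf9. Of all 32851 promoter entries, 3.9% had it, and a difference between these shares was not tested. All 3 matching windows are shown, Ltb also because it had the highest RPKM of any ligand and Tnfrsf8 because its 2 mouse lines did not overlap. They are written 5′ to 3′ on the strand of the gene, with the matching bases in capitals.
Ltb: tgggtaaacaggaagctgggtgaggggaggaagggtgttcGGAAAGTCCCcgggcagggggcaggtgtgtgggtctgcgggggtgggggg
Tnfrsf8: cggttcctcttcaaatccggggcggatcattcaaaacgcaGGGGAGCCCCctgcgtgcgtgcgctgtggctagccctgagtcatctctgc
Tnfrsf9: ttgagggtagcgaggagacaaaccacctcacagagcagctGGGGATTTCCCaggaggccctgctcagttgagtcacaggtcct
The Ltb window lies at chr17:35194380-35194469 (plus strand), with the match from 87 to 78 bases before the start. The Tnfrsf8 window lies at chr4:145315283-145315372 (minus strand), with the match from 168 to 159 bases before the start. The Tnfrsf9 window lies at chr4:150927916-150927998 (plus strand), before the start of 1 of its 2 promoter entries, and 2 overlapping matches fill the 11 capitals from 43 to 33 bases before it. A match is a likeness of letters only, and binding was not measured.

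Total counts ranged from 51824408 to 163297772 per tumor, and every count in the table was even. Levels of 1 gene between tumors are given as CPM (counts brought to a common library size with edgeR's TMM factors), in the order 13, 18 and 25, then 27, 29 and 36. Levels between genes are given as the deposited RPKM, which are also divided by gene length. Basal keratinocyte markers were high in every tumor (summed 14247, 9956 and 11297 against 10002, 12809 and 5687 CPM), whereas of the 5 osteoblast markers Sp7, which encodes Osterix, reached at most 0.282 CPM, Bglap at most 0.125 CPM and Ibsp at most 0.124 CPM, Alpl had 0.331 to 3.63 CPM and Runx2, which other cell types also express, 4.77 to 9.85 CPM. Tumor 36 stood apart in markers of simple epithelium (summed 945, 1174 and 1024 against 566, 581 and 4660.0 CPM), smooth muscle (248, 226 and 510.4 against 313, 275 and 2099 CPM) and fat (2.32, 12.5 and 2.7 against 34.3, 3.23 and 123 CPM). Map3k14, whose counts cannot separate NT3 from the mouse's own gene, had 54.7, 38.7 and 118 CPM in tumors 13, 18 and 25 and 103, 90.8 and 43.5 CPM in tumors 27, 29 and 36. It was highest in tumors 25, 27 and 29, and the lines overlapped.

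Per gene length, receptors were more abundant than ligands, with a median over genes of the mean RPKM of 9.46 for the 28 receptors and 1.04 for the 18 ligands. Of the receptors, 18 reached 1 RPKM in every tumor and 8 reached 10 RPKM in every tumor. Of the ligands, 6 reached 1 RPKM in every tumor and 1, Ltb, reached 10 RPKM in every tumor. On the scale of counts, 32 of the 46 members were at 1 CPM or above in every tumor. The highest mean RPKM (mean ± SD, n = 6 tumors) belonged to Tnfrsf1a (38.8 ± 7.43), Tnfrsf19 (37.1 ± 13.9), Ltb (36.9 ± 10.2), Ltbr (29.5 ± 3.32), Tnfrsf21 (26.8 ± 11.6) and Relt (25.5 ± 11.2), and the intervals of 1 SD around these 6 means overlapped. At the other end, Eda (0.127 ± 0.0898) and the BAFF receptor Tnfrsf13c (0.219 ± 0.169) had the lowest mean RPKM.

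**Figure D1:**
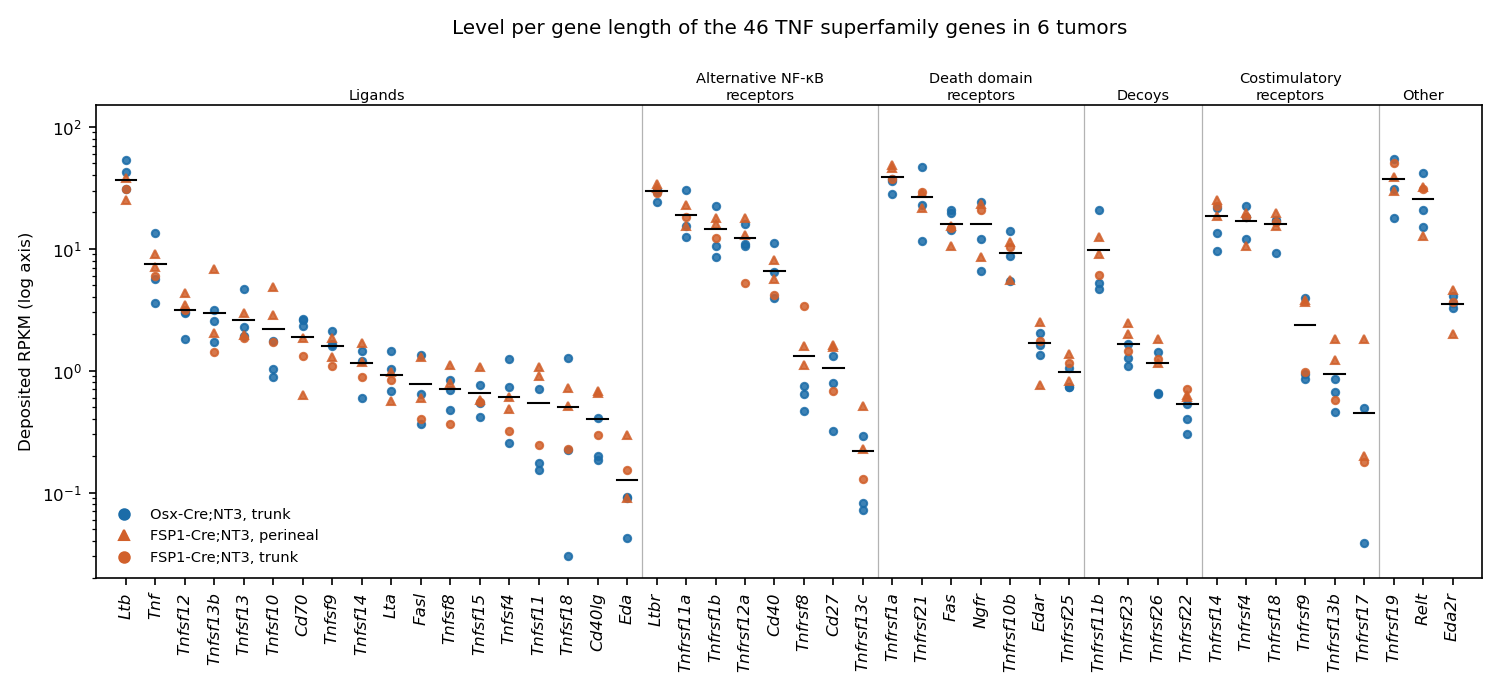
Deposited RPKM (log axis) of each of the 46 genes, grouped by role, with 1 point per tumor and a bar at the mean of the 6 tumors; Tnfrsf17 in tumor 25 is at 0 and not drawn. Ltb stands above the other 17 ligands, and most genes at or above 10 RPKM are receptors.

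Among the ligands, lymphotoxin β (Ltb), the membrane anchor of the lymphotoxin heterotrimer that binds LTβR, had 61.9, 77.5 and 41.3 CPM in Osx-Cre;NT3 tumors and 47.2, 42.5 and 34.3 CPM in FSP1-Cre;NT3 tumors. It made up from 41.7% (tumor 36) to 64.2% (tumor 13) of the RPKM summed over the 18 ligands, 56.2% ± 8.53 on average (SD, n = 6). Tumors 13 and 18 were highest, but tumor 25 lay below tumors 27 and 29, so the lines overlapped. Its partner lymphotoxin α (Lta), needed for the heterotrimer, had 1.9, 2.66 and 1.15 CPM in Osx-Cre;NT3 tumors and 1.53, 1.46 and 0.969 CPM in FSP1-Cre;NT3 tumors. In these CPM, not corrected for the trend over gene length described below, the 6 tumors stood in the same order for Lta as for Ltb. Per gene length Ltb exceeded Lta by 36.7 to 45.1 times in each tumor. TNF itself (Tnf) had 12.1, 7.69 and 26.5 CPM in Osx-Cre;NT3 tumors and 16.5, 12.2 and 14.1 CPM in FSP1-Cre;NT3 tumors. Tnf was highest in tumor 25 and lowest in tumor 18, an order unlike that of its neighbors. The 3 genes lie side by side on chromosome 17 (mm10), Ltb at 35194507 to 35196305, Tnf at 35199391 to 35201996 and Lta at 35203165 to 35205351. Lymphotoxin genes are typical of lymphocytes, and the summed T cell markers were 142, 228 and 64.6 against 163, 82.6 and 134 CPM, again highest in tumor 18, with all 9 markers above 0 in every tumor. In bulk tumor RNA, fewer cells of a type and less RNA per cell cannot be told apart, and the part of T cells in these values was not tested.

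Ligands of the death and TRAIL receptors were low to moderate. TRAIL (Tnfsf10), which triggers apoptosis through DR5, had 6.75, 11.4 and 5.35 CPM in Osx-Cre;NT3 tumors and 15.9, 10.6 and 29.8 CPM in FSP1-Cre;NT3 tumors. Tumor 36 was highest, tumor 27 next, and tumor 18 lay above tumor 29, so the lines overlapped while both perineal tumors lay above all 4 trunk tumors. Fas ligand (Fasl), made by cytotoxic lymphocytes, had 1.66, 3.46 and 0.873 CPM in Osx-Cre;NT3 tumors and 2.82, 0.975 and 1.44 CPM in FSP1-Cre;NT3 tumors. TL1A (Tnfsf15), the ligand of DR3, had 3.23, 4.18 and 5.49 CPM in Osx-Cre;NT3 tumors and 7.06, 4.0 and 4.13 CPM in FSP1-Cre;NT3 tumors. Tumors 18 and 27 were the highest for Fasl and tumors 27 and 25 for Tnfsf15, with overlapping lines for both.

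Of the ligands that act on B cells and macrophages, BAFF (Tnfsf13b) had 5.8, 7.09 and 3.6 CPM in Osx-Cre;NT3 tumors and 3.9, 3.03 and 14.3 CPM in FSP1-Cre;NT3 tumors. APRIL (Tnfsf13), which shares receptors with BAFF, had 5.13, 10.4 and 4.0 CPM in Osx-Cre;NT3 tumors and 3.75, 3.87 and 6.13 CPM in FSP1-Cre;NT3 tumors. BAFF was highest in tumor 36 and APRIL in tumor 18, and lines overlapped for both. TWEAK (Tnfsf12), the ligand of Fn14, had 6.87, 6.69 and 3.77 CPM in Osx-Cre;NT3 tumors and 6.63, 6.7 and 9.07 CPM in FSP1-Cre;NT3 tumors. Tumor 25 was lowest and tumor 36 highest for TWEAK. Tnfsf12 and Tnfsf13 are neighbors on chromosome 11 and share exons with the read-through gene Tnfsfm13 in GENCODE M21, over 48.3% of the exon bases of Tnfsf12 and 60.0% of those of Tnfsf13, so their division of reads is uncertain.

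RANKL (Tnfsf11), the osteoclast differentiation factor, had 0.455, 2.07 and 0.479 CPM in Osx-Cre;NT3 tumors and 2.27, 0.693 and 2.97 CPM in FSP1-Cre;NT3 tumors. It was at 2 CPM or above in tumors 18, 27 and 36 and under 1 CPM in the other 3. LIGHT (Tnfsf14), which binds HVEM and LTβR, had 2.94, 3.52 and 1.35 CPM in Osx-Cre;NT3 tumors and 2.46, 2.05 and 3.88 CPM in FSP1-Cre;NT3 tumors. The ligand of CD27, Cd70, had 2.9, 2.94 and 2.39 CPM in Osx-Cre;NT3 tumors and 1.78, 1.39 and 0.657 CPM in FSP1-Cre;NT3 tumors. LIGHT overlapped between the lines, with tumor 25 lowest, whereas for Cd70 each Osx-Cre;NT3 tumor lay above each FSP1-Cre;NT3 tumor.

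The remaining costimulatory ligands stayed under 4 CPM. The CD137 ligand Tnfsf9 had 2.69, 3.43 and 2.42 CPM in Osx-Cre;NT3 tumors and 2.58, 1.67 and 1.97 CPM in FSP1-Cre;NT3 tumors. CD30 ligand (Tnfsf8) had 1.41, 2.05 and 2.28 CPM in Osx-Cre;NT3 tumors and 2.79, 1.03 and 2.19 CPM in FSP1-Cre;NT3 tumors. Tnfsf9 was highest in tumor 18 and Tnfsf8 in tumor 27, with overlapping lines. OX40 ligand (Tnfsf4) had 1.57, 2.66 and 0.507 CPM in Osx-Cre;NT3 tumors and 0.89, 0.641 and 1.22 CPM in FSP1-Cre;NT3 tumors. GITR ligand (Tnfsf18) had 0.0828, 3.48 and 0.563 CPM in Osx-Cre;NT3 tumors and 1.69, 0.59 and 1.31 CPM in FSP1-Cre;NT3 tumors. Both were highest in tumor 18, and Tnfsf18 spanned 42-fold between tumors 13 and 18, the widest range of any member above 0 in every tumor, on counts of 4 and 536. CD40 ligand (Cd40lg) and ectodysplasin (Eda) averaged under 1 CPM. Cd40lg had 0.331, 0.676 and 0.282 against 0.921, 0.462 and 1.06 CPM, highest in the perineal tumors, and Eda had 0.29, 0.624 and 0.563 against 0.522, 0.975 and 1.88 CPM, highest in tumor 36.

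Of the 8 receptors that feed into NIK, LTβR (Ltbr) was the steadiest member, with 84.1, 66.1 and 74.5 CPM in Osx-Cre;NT3 tumors and 80.4, 75.6 and 80.9 CPM in FSP1-Cre;NT3 tumors. Its highest tumor was 1.27 times its lowest, against a median of 2.87 times over the 45 members above 0 in every tumor and 2.35 times over the 16155 genes tested between lines that were above 0 in every tumor. Ltb and Ltbr were at like RPKM, with Ltb from 0.809 to 2.24 times Ltbr across tumors. RANK (Tnfrsf11a) had 103, 82.5 and 185 CPM in Osx-Cre;NT3 tumors and 129, 115 and 94.9 CPM in FSP1-Cre;NT3 tumors. Tumor 25 was highest and tumor 18 lowest, both of 1 line. RANK exceeded RANKL by 14.2 to 172 times in RPKM.

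TNFR2 (Tnfrsf1b) had 69.2, 55.9 and 135 CPM in Osx-Cre;NT3 tumors and 98.9, 75 and 97.6 CPM in FSP1-Cre;NT3 tumors. CD40 (Cd40) had 15.4, 26.2 and 8.56 CPM in Osx-Cre;NT3 tumors and 16.3, 9.39 and 12.5 CPM in FSP1-Cre;NT3 tumors. The Fn14 gene Tnfrsf12a had 14.1, 20.4 and 12.4 CPM in Osx-Cre;NT3 tumors and 14.1, 6.28 and 21.4 CPM in FSP1-Cre;NT3 tumors. TNFR2 was highest in tumor 25, CD40 in tumor 18 and Fn14 in tumor 36, and the lines overlapped for all 3. CD30 (Tnfrsf8), a receptor of activated lymphocytes, had 1.57, 1.33 and 0.901 CPM in Osx-Cre;NT3 tumors and 1.96, 6.72 and 3.13 CPM in FSP1-Cre;NT3 tumors. Tumor 29 was highest, and each FSP1-Cre;NT3 tumor lay above each Osx-Cre;NT3 tumor. CD27 (Cd27) had 1.66, 2.77 and 0.62 CPM in Osx-Cre;NT3 tumors and 2.79, 1.33 and 3.19 CPM in FSP1-Cre;NT3 tumors. Tumor 25 was lowest for Cd27, and tumors 27 and 36 were highest. The BAFF receptor Tnfrsf13c averaged under 1 CPM and was highest in tumor 36, at 1.22 CPM.

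Among death domain receptors, TNFR1 (Tnfrsf1a), the main receptor of soluble TNF, had 106, 79.8 and 95.2 CPM in Osx-Cre;NT3 tumors and 118, 101 and 123 CPM in FSP1-Cre;NT3 tumors. It exceeded TNFR2 in every tumor by 1.6 to 3.5 times in RPKM, and tumors 36 and 27 were highest. DR6 (Tnfrsf21) had 111, 55.2 and 208 CPM in Osx-Cre;NT3 tumors and 119, 131 and 96.8 CPM in FSP1-Cre;NT3 tumors. The low-affinity neurotrophin receptor p75 (Ngfr) had 54.2, 29.5 and 100.2 CPM in Osx-Cre;NT3 tumors and 90.3, 89 and 35.8 CPM in FSP1-Cre;NT3 tumors. DR5 (Tnfrsf10b), the mouse death receptor for TRAIL, had 36.7, 22.6 and 54.1 CPM in Osx-Cre;NT3 tumors and 41, 41.2 and 21.9 CPM in FSP1-Cre;NT3 tumors. For these 3, tumor 25 was highest and tumors 27 and 29 came next, and tumors 18 and 36 were the lowest, so the spread lay within each line. Markers of Schwann cells, which are known to carry p75, summed to 1.53, 4.57 and 1.49 against 2.79, 2.95 and 9.07 CPM. Of these markers Sox10 reached at most 2.06 CPM and S100b at most 1.84 CPM. Their part in the Ngfr values was not tested.

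Fas, the receptor of Fas ligand, had 49.9, 47.1 and 31.5 CPM in Osx-Cre;NT3 tumors and 31.5, 33.1 and 23.4 CPM in FSP1-Cre;NT3 tumors. Tumors 13 and 18 were highest and tumor 36 lowest, and tumor 25 at the level of tumor 27. Edar, the ectodysplasin receptor of hair and gland buds, had 6.63, 7.95 and 9.24 CPM in Osx-Cre;NT3 tumors and 10.4, 8.0 and 3.5 CPM in FSP1-Cre;NT3 tumors. DR3 (Tnfrsf25) had 1.57, 2.22 and 1.44 CPM in Osx-Cre;NT3 tumors and 2.49, 2.31 and 1.63 CPM in FSP1-Cre;NT3 tumors. Edar was lowest in tumor 36, Tnfrsf25 stayed between 1.44 and 2.49 CPM, and the lines overlapped for both. Edar exceeded its ligand Eda in every tumor, by 2.59 to 31.7 times in RPKM.

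Of the decoy receptors, osteoprotegerin (Tnfrsf11b), which binds RANKL away from RANK, had 17.5, 19.3 and 72 CPM in Osx-Cre;NT3 tumors and 40.2, 21.6 and 31.3 CPM in FSP1-Cre;NT3 tumors. Tumor 25 was highest, as it was for RANK. In RPKM osteoprotegerin exceeded RANKL by 7.41 to 119 times. The TRAIL decoy Tnfrsf23 had 5.51, 4.73 and 6.62 CPM in Osx-Cre;NT3 tumors and 9.09, 5.95 and 8.07 CPM in FSP1-Cre;NT3 tumors. Its neighbor Tnfrsf26 had 2.61, 5.59 and 2.37 CPM in Osx-Cre;NT3 tumors and 6.17, 4.67 and 4.25 CPM in FSP1-Cre;NT3 tumors. Another TRAIL decoy, Tnfrsf22, had 1.61, 0.909 and 1.13 CPM in Osx-Cre;NT3 tumors and 1.57, 2.03 and 1.78 CPM in FSP1-Cre;NT3 tumors. All 3 stayed under 10 CPM in every tumor, and tumor 27 was highest for Tnfrsf23 and Tnfrsf26. They are near copies in 1 cluster on chromosome 7 (143607685 to 143685872), and how the counting divided reads between them is uncertain.

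Of the costimulatory receptors of lymphocytes, OX40 and GITR were far above their ligands in every tumor. OX40 (Tnfrsf4) had 27.9, 34 and 17.1 CPM in Osx-Cre;NT3 tumors and 25.6, 26.2 and 15.1 CPM in FSP1-Cre;NT3 tumors. GITR (Tnfrsf18), its neighbor on chromosome 4, had 23.2, 22.3 and 11.5 CPM in Osx-Cre;NT3 tumors and 22.6, 20.9 and 19.1 CPM in FSP1-Cre;NT3 tumors. Both are known from regulatory and activated T cells. GITR was even except in tumor 25, which had 11.5 CPM, and lines overlapped for both. Per gene length OX40 exceeded OX40 ligand by 17.2 to 57 times and GITR exceeded GITR ligand by 13.1 to 574 times. CD137 (Tnfrsf9) had 2.53, 11.7 and 2.56 CPM in Osx-Cre;NT3 tumors and 9.24, 2.69 and 10.5 CPM in FSP1-Cre;NT3 tumors. Tumors 18, 27 and 36 were far above tumors 13, 25 and 29, so that each line held both high and low tumors. HVEM (Tnfrsf14), the receptor of LIGHT, had 15.9, 11.3 and 23.6 CPM in Osx-Cre;NT3 tumors and 25.5, 24.9 and 20.7 CPM in FSP1-Cre;NT3 tumors. HVEM was lowest in tumors 18 and 13.

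The plasma cell receptor BCMA (Tnfrsf17) was listed at 0 in tumor 25, where 3 counts correspond to 0.0427 CPM, and reached 1.81 CPM in tumor 36. TACI (Tnfrsf13b) had 0.663, 0.844 and 0.422 CPM in Osx-Cre;NT3 tumors and 1.04, 0.539 and 1.69 CPM in FSP1-Cre;NT3 tumors. Both were highest in tumor 36, the tumor that also had the highest sum over 4 B cell markers (7.04, 12.5 and 6.98 against 9.12, 8.82 and 15 CPM). Of those markers Ms4a1 and Pax5 were each at or under 1.09 CPM in every tumor, and none was at 0. Cd79b, the largest of the 4 in every tumor, was highest in tumor 18 (10.8 CPM) and had 8.35 CPM in tumor 36. Cd79a (5.38 CPM) and Ms4a1 (1.09 CPM) were highest in tumor 36, and Pax5 in tumor 25 (0.169 CPM). The share of B cells in the values of TACI and BCMA was not tested.

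TROY (Tnfrsf19), an orphan receptor of skin and nerve, had 195, 113 and 322 CPM in Osx-Cre;NT3 tumors and 209, 304 and 175 CPM in FSP1-Cre;NT3 tumors. The gene Relt, another orphan receptor, had 77.3, 56.2 and 144 CPM in Osx-Cre;NT3 tumors and 103, 109 and 44.3 CPM in FSP1-Cre;NT3 tumors. XEDAR (Eda2r), a receptor of the shorter ectodysplasin isoform, had 27.9, 25 and 29.4 CPM in Osx-Cre;NT3 tumors and 30, 26.7 and 14.4 CPM in FSP1-Cre;NT3 tumors. TROY and Relt were highest in tumors 25 and 29 and low in tumors 18 and 36, and Eda2r was even apart from its low value in tumor 36. Over all 46 genes, tumor 36 was highest for 13 and lowest for 9, tumor 18 highest for 11 and lowest for 11, and tumor 25 highest for 9 and lowest for 15. Of all genes tested, tumor 36 was highest for 24.8% and lowest for 23.8%, tumor 18 highest for 22.8% and lowest for 25.2%, and tumor 25 highest for 21.9% and lowest for 18.7%.

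**Figure D2:**
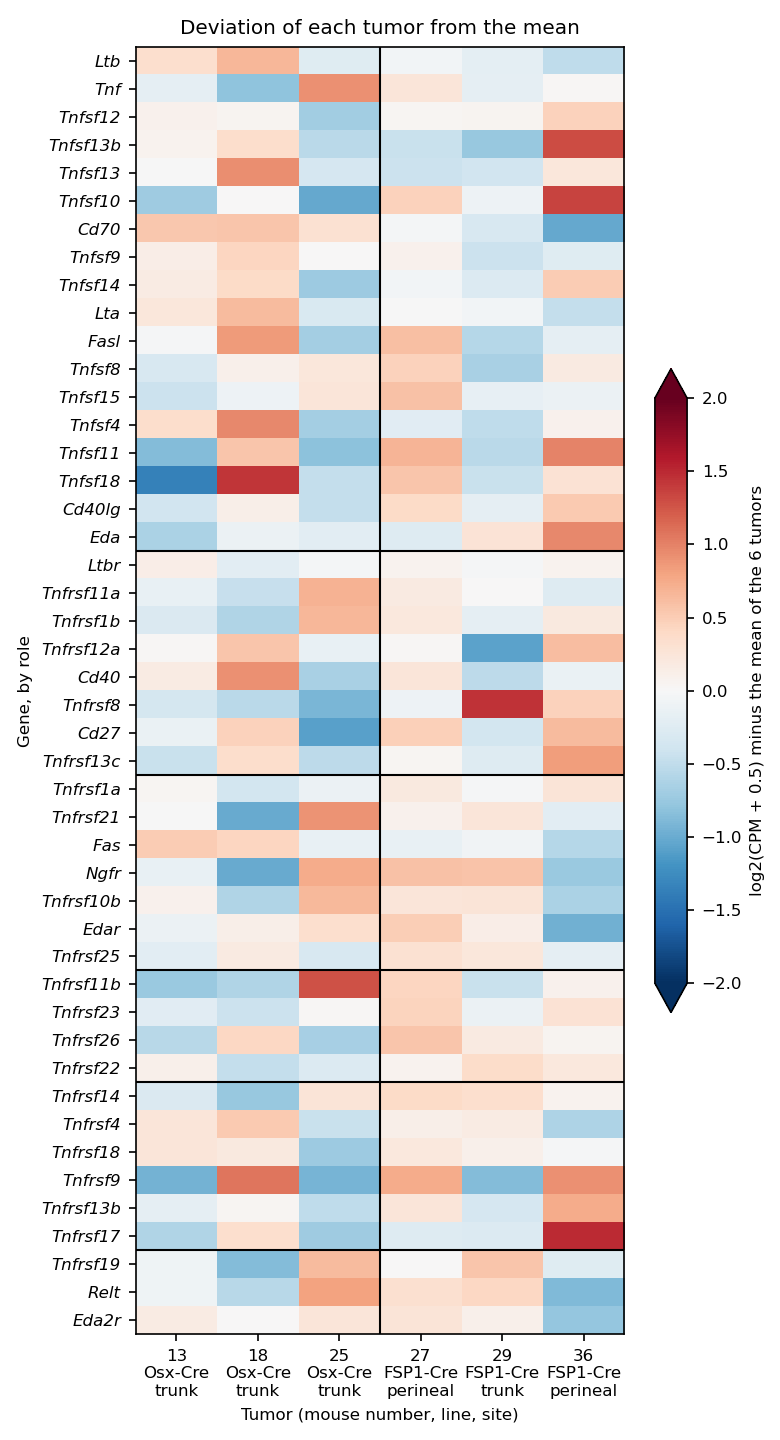
Deviation of each tumor (columns) from the mean of the 6 tumors for each gene (rows, by role), as log2(CPM + 0.5), red above and blue below the mean, capped at 2. Each line holds both red and blue tumors for most genes, and Tnfsf10 in tumor 36 (29.8 CPM) and Tnfrsf8 in tumor 29 (6.72 CPM) are among the deepest red cells.

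The comparison of FSP1-Cre;NT3 with Osx-Cre;NT3 tumors asked whether the 2 Cre drivers gave tumors alike in these genes. No member passed: 0 of 46 had an adjusted p under 0.05, as did 0% of the 16415 genes tested (quasi-likelihood test of edgeR, Benjamini-Hochberg adjusted). At an unadjusted p under 0.05 stood 2 members, Tnfrsf8 and Tnfsf10, which is 4.35% of the members against 10.8% of all genes tested. By DESeq2, 0 members and 2.72% of all genes passed, and 3 members had an unadjusted p under 0.05, which is 6.52% of the members against 14.6% of all genes given a p by DESeq2. The median log2 fold change of the members was 0.09 (26 above 0 and 20 below), beside 0.01 and 51.1% above 0 for all genes. The median was -0.03 over the 18 ligands and 0.13 over the 28 receptors.

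Among the named genes, CD30 (Tnfrsf8) had a log2 fold change of 1.64 ± 0.56 (SE) with an unadjusted p of 0.0223 and an adjusted p of 0.458 in edgeR. It was the 1 member with all FSP1-Cre;NT3 tumors above all Osx-Cre;NT3 tumors, 2.17% of the members against a background of 9.03% of genes. Tumor 29 weighed most, and without it the log2 fold change was 0.98. TRAIL (Tnfsf10) had 1.26 ± 0.47, with an unadjusted edgeR p of 0.0329 and an adjusted p of 0.458, and the lines overlapped. On trunk tumors alone, where the FSP1-Cre;NT3 line is tumor 29 only, this was 0.43 for Tnfsf10 and 2.40 for Tnfrsf8. Cd70 had -1.10 ± 0.47 with an adjusted edgeR p of 0.458 and was the 1 member with every FSP1-Cre;NT3 tumor below every Osx-Cre;NT3 tumor, beside 7.97% of all genes. Fas (-0.55 ± 0.26) and Ltb (-0.54 ± 0.27) followed at unadjusted edgeR p-values of 0.0719 and 0.0894. With DESeq2 and tumor 25 left out, 3 members passed, Fas, Ltb and Tnfrsf14, in a fit that called 3650 genes in all, and without tumor 27 Tnfrsf8 passed, among 460 genes. Several markers had an unadjusted edgeR p under 0.05 between lines: Lyz2, Mrc1, S100a8, S100a9, Cxcr2, Pecam1, Tie1, Tek, Cnn1, Lmod1, Col1a1, Col1a2, Col3a1, Dcn, Pdgfra, Plin1 and Cidec, 0 of them with an adjusted p under 0.05. Their part in the values of the members was not tested.

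The smallest SEs between lines were those of Ltbr and Tnfrsf1a. The log2 fold change between lines was 0.08 ± 0.17 for Ltbr and 0.28 ± 0.19 for Tnfrsf1a, and for the further receptors TNFR2 and RANK it was 0.06 ± 0.35 and -0.13 ± 0.33 (SE). The median SE over the members was 0.46, and in 25 of 46 members the log2 fold change was smaller in size than its own SE. In simulated counts with these library sizes and spreads, edgeR called 39.5% of genes changed 4-fold between lines and 85% of those changed 16-fold.

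**Figure D3:**
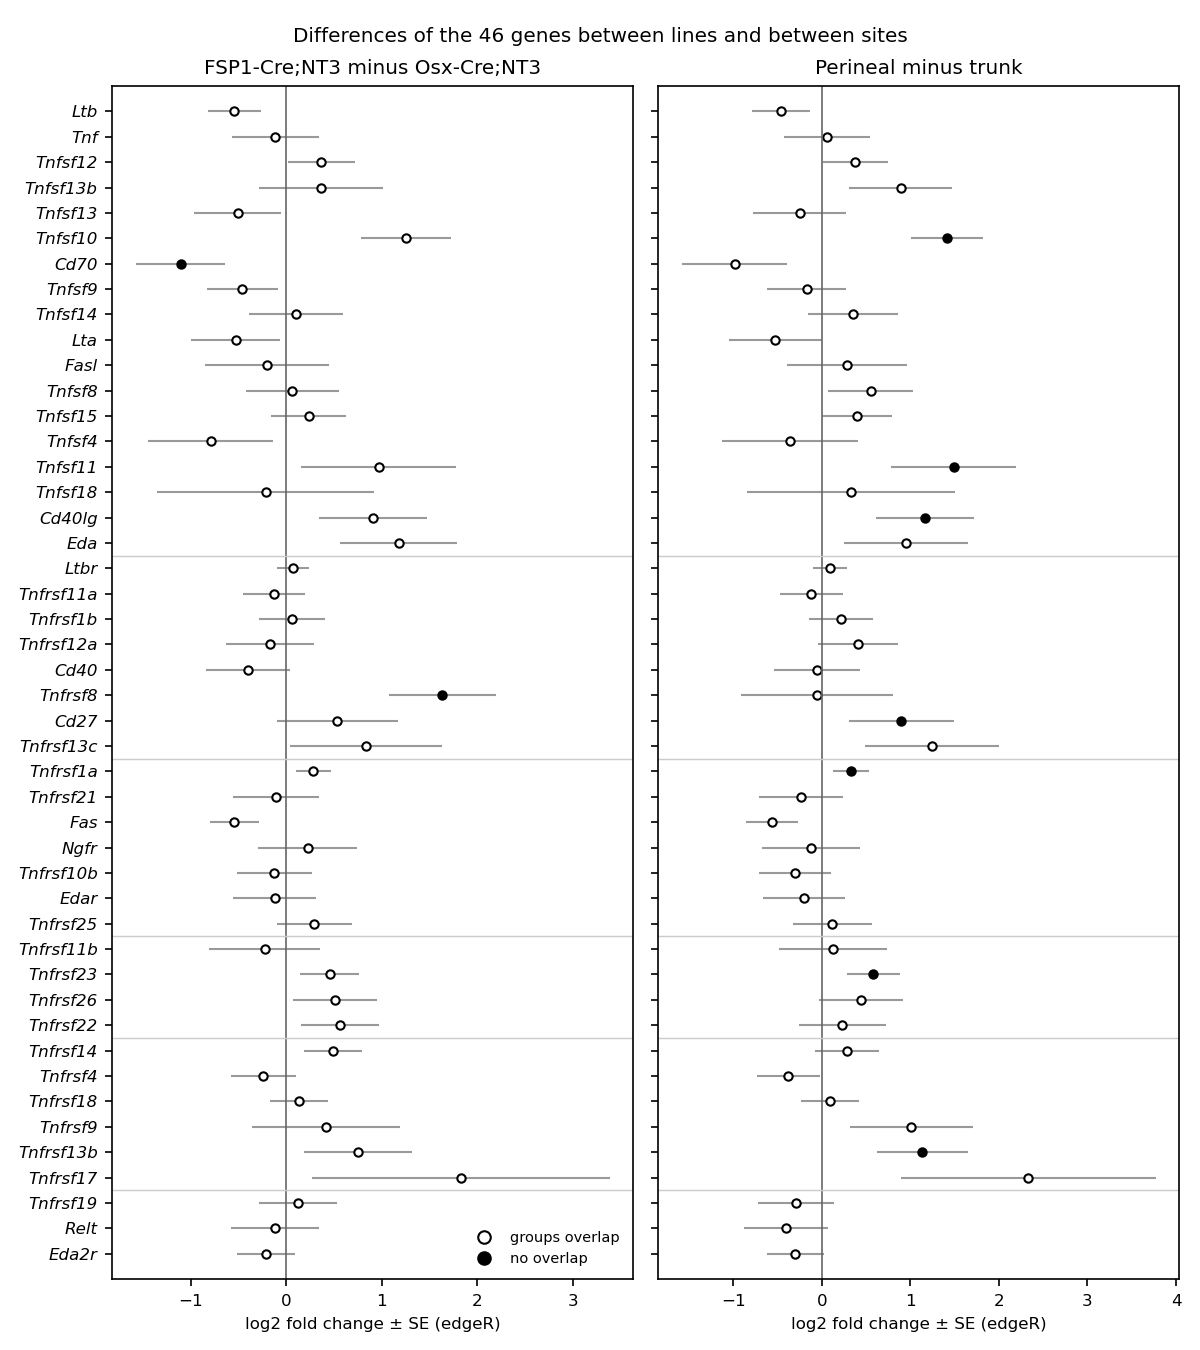
log2 fold change with its SE (edgeR) of each of the 46 genes, FSP1-Cre;NT3 minus Osx-Cre;NT3 on the left and perineal minus trunk on the right; filled points mark genes whose 2 groups do not overlap. Between lines Tnfrsf8 and Cd70 are filled, and between sites 7 genes are filled, all to the right of 0.

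Perineal tumors (27 and 36) were compared with trunk tumors (13, 18, 25 and 29), since tumors arose at both sites. Again 0 of 46 members passed an adjusted p of 0.05 in edgeR, and 0% of the 16971 genes tested. An unadjusted p under 0.05 was reached by 1 member, Tnfsf10, which is 2.17% of the members against 10.5% of all genes. DESeq2 called 0 members and 3.66% of all genes, with 3 members at an unadjusted p under 0.05, which is 6.52% of the members against 13.8% of all genes given a p by DESeq2. The members' median log2 fold change was 0.17 (28 above 0 and 18 below), beside -0.02 and 48.5% above 0 for all genes. It was 0.34 over the ligands, with 12 of 18 above 0, and 0.11 over the receptors, with 16 of 28 above 0.

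In 7 members both perineal tumors lay above all 4 trunk tumors, 15.2% of the members beside 10.3% of all genes, and in 0 members both lay below, beside 9.36%. TRAIL (Tnfsf10) had 15.9 and 29.8 CPM in the perineal tumors and 6.75, 11.4, 5.35 and 10.6 CPM in the trunk tumors. Its log2 fold change was 1.41 ± 0.40 (SE), with an unadjusted edgeR p of 0.00948 and an adjusted p of 0.307, and without tumor 36 it was 0.90. Within FSP1-Cre;NT3 mice alone, 2 perineal tumors against 1, it was 1.09. TRAIL's mouse death receptor DR5 had -0.30 ± 0.41 and overlapped between sites.

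RANKL (Tnfsf11) had 2.27 and 2.97 CPM in the perineal tumors and 0.455, 2.07, 0.479 and 0.693 CPM in the trunk tumors. Its log2 fold change was 1.49 ± 0.70 with an adjusted edgeR p of 0.513, and tumor 18 lay just below the perineal tumors. Without tumor 18 it was 2.26. RANK had -0.12 ± 0.35 and osteoprotegerin 0.13 ± 0.61, and both overlapped between sites. The further non-overlapping members were the lymphocyte genes Cd27 (0.90 ± 0.60), Cd40lg (1.16 ± 0.55) and Tnfrsf13b (1.14 ± 0.51), the decoy Tnfrsf23 (0.58 ± 0.30) and TNFR1 (0.33 ± 0.20), with adjusted edgeR p-values from 0.498 to 0.59. Fas had -0.56 ± 0.29 with an adjusted edgeR p of 0.544 and was lowest in tumor 36, although tumor 25 kept the sites overlapping. With DESeq2 and 1 tumor left out, Tnfsf10, Tnfsf11 and Tnfrsf9 passed without tumor 18 (of 649 genes), Tnfrsf11b without tumor 25 (of 669) and Tnfsf10 without tumor 27 (of 1492).

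**Figure D4:**
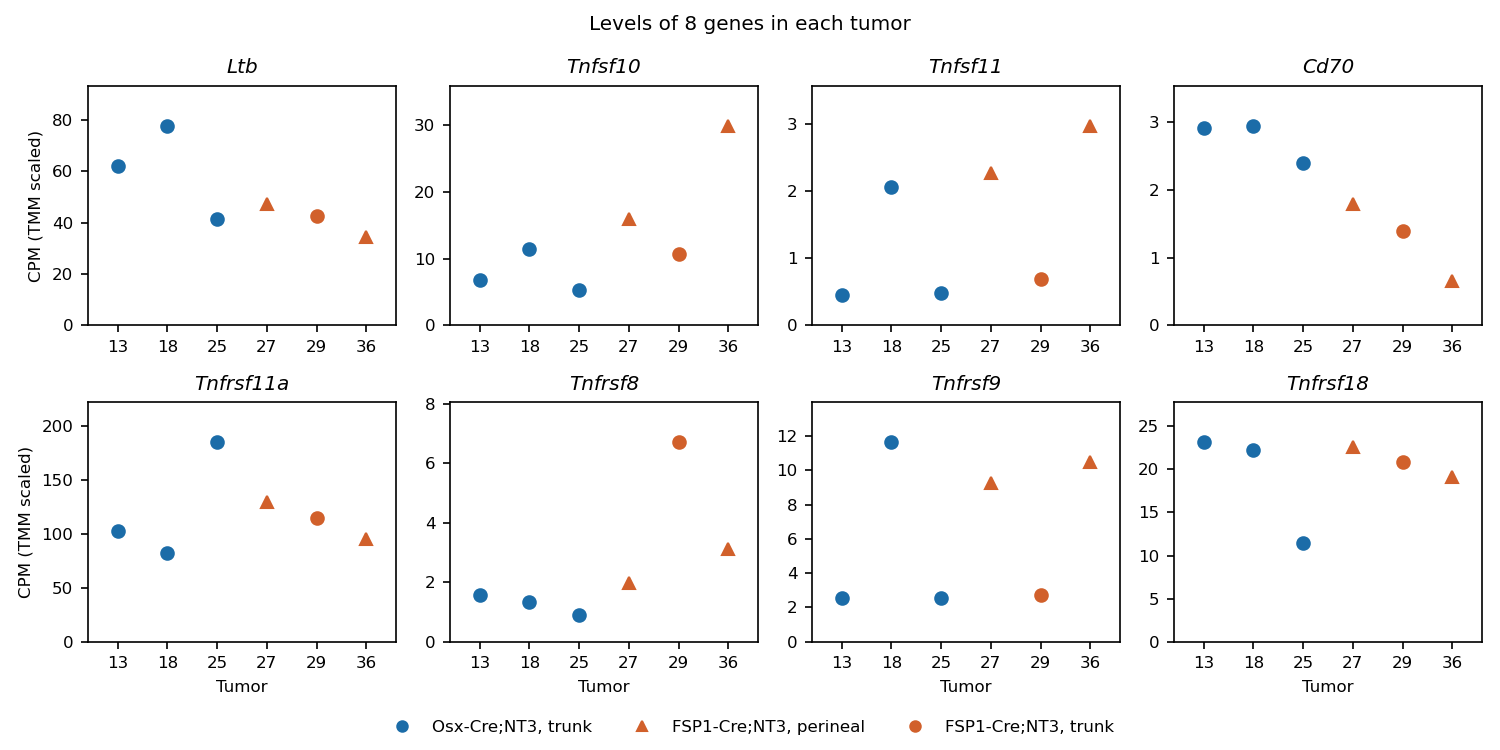
TMM-scaled CPM of 8 genes in each tumor, blue for Osx-Cre;NT3 and orange for FSP1-Cre;NT3, with circles for trunk and triangles for perineal tumors; each axis starts at 0. Both triangles lie above all circles for Tnfsf10 and Tnfsf11, Tnfrsf9 is high in tumors 18, 27 and 36, and Tnfrsf18 is low in tumor 25 (11.5 CPM).

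Marker genes of lymphocytes were read beside these members, and 0 of them had an adjusted edgeR p under 0.05 between sites. T cell markers had 6 of 9 genes above 0 with a median log2 fold change of 0.22, and 1 of them, Cd4, had an unadjusted edgeR p under 0.05. They summed to 163 and 134 CPM in the perineal tumors and to 64.6 to 228 CPM in the trunk tumors, and so overlapped. Natural killer cell markers had 0 of 4 above 0, with a median log2 fold change of -0.32 and 0 at an unadjusted edgeR p under 0.05. B cell markers had 3 of 4 above 0 (median 1.06, with Cd79a and Ms4a1 at an unadjusted p under 0.05), and in the perineal tumors they summed to 9.12 and 14.98 CPM against 6.98 to 12.5 CPM in the trunk tumors. Neutrophil markers had all 4 found genes above 0, and so did the 4 adipocyte, 5 endothelial and 5 smooth muscle markers. The 6 fibroblast, 6 suprabasal keratinocyte, 3 Schwann cell and 2 tested osteoblast markers were also all above 0. Simple epithelium markers had 4 of 5 above 0, dendritic cell markers 3 of 5, macrophage markers 3 of 7 and basal keratinocyte markers 1 of 6. The part of these markers in the values of Cd27, Cd40lg and Tnfrsf13b was not tested. Further markers at an unadjusted edgeR p under 0.05 between sites were Mrc1, S100a8, S100a9, Csf3r, Cxcr2, Pecam1, Tek, Krt8, Krt19, Cldn3, Acta2, Tagln, Cnn1, Lmod1, Pdgfra, Adipoq, Fabp4, Plin1 and Cidec, all with an adjusted p above 0.05.

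Below the receptors, 21 adaptors and regulators were followed (the TRAF, TRADD, FADD and cIAP genes, the linear ubiquitin enzymes, A20, CYLD and others). In edgeR 0 of 21 passed in either comparison. Between lines 8 were above 0 and 13 below, with a median log2 fold change of -0.04, and 1 had an unadjusted p under 0.05, which is 4.76% of the 21 against 10.8% of all genes. This was Tank, a TRAF-binding regulator, with 142, 174 and 143 CPM in Osx-Cre;NT3 tumors and 117, 112 and 85.8 CPM in FSP1-Cre;NT3 tumors. Its log2 fold change was -0.55 ± 0.20 (SE) with an adjusted edgeR p of 0.458, and each FSP1-Cre;NT3 tumor lay below each Osx-Cre;NT3 tumor, as in 7.97% of all genes. Between sites 7 were above 0 and 14 below, with a median of -0.07 and 0 at an unadjusted p under 0.05, beside 10.5% of all genes.

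Gene length moved with the tumors. Over all genes tested between lines, the shortest 20% (at most 1512 bases in the table's length column) had a median log2 deviation from the mean of the 6 tumors of 0.35 in tumor 13 and 0.49 in tumor 18, against -0.36, -0.24, -0.10 and -0.16 in tumors 25, 27, 29 and 36. In the longest 20% (4594 bases or more) the signs turned, to -0.27 and -0.47 in tumors 13 and 18 and to 0.33, 0.23, 0.08 and 0.10 in the others. The 15 longest members (2817 to 5828 bases) had a median deviation of -0.47 in tumor 18 and 0.64 in tumor 25, and the 15 shortest (750 to 1609 bases) 0.54 and -0.45. The long members Tnfrsf11a, Tnfrsf1b, Tnfrsf19, Tnfrsf21 and Ngfr were highest in tumor 25 and lowest in tumor 18, and the short members Ltb, Tnfrsf4 and Lta were highest in tumor 18 and low in tumors 25 and 36. Other members did not follow this. Tnfrsf14, among the shortest at 893 bases, was lowest in tumor 18, and the short Tnfrsf12a (965 bases) and Tnfrsf13b (750 bases) were highest in tumor 36. The long Tnfsf10 (4944 bases) and Tnfrsf26 (2977 bases) were lowest in tumor 25. According to the study's methods the Osx-Cre;NT3 RNA was on average of lower integrity, and values for single tumors were not used here. The part of RNA integrity in the trend over gene length was not tested.

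With the trend over gene length taken out, an alternative chosen after the data had been seen, 0 members passed in either comparison and the median range from highest to lowest tumor of the 45 members above 0 in every tumor was 2.75 times, beside 2.07 times for all such genes. Tnfrsf1b, Tnfrsf21 and Ngfr were still highest in tumor 25 and lowest in tumor 18 after this step, whereas Tnfrsf11a was lowest in tumor 36 and Tnfrsf19 highest in tumor 29. Between lines 6 members then had all FSP1-Cre;NT3 tumors higher (Tnfrsf8, Tnfrsf18, Tnfrsf1a, Tnfrsf22, Tnfrsf13b and Tnfsf12), beside 9.08% of all genes, and 1, Fas, had all lower, beside 10.6%. Between sites 9 members were higher without overlap (beside 10.1% of all genes) and Fas was lower, beside 10.5%. The 9 were Cd27, Cd40lg, Ltbr, Tnfrsf1a, Tnfrsf12a, Tnfrsf13b, Tnfrsf23, Tnfsf11 and Tnfsf12. Tnfsf10 was not among them and then overlapped between sites, with trunk tumor 18 at 14.6 CPM and perineal tumor 27 at 14.1 CPM. The fold changes of Tnfrsf8 (1.82 between lines) and Tnfsf10 (1.18 between sites) kept their sign, and 4 members changed sign between lines and 3 between sites. Other named log2 fold changes between lines shrank, Ltb from -0.54 to -0.19, Cd70 from -1.10 to -0.72 and Tnfsf10 from 1.26 to 0.97. Fas went from -0.55 to -0.40 and Eda from 1.18 to 0.95, whereas Tnfrsf8 rose from 1.64. Cd70 then overlapped between lines, with tumor 27 at 2.17 CPM and tumor 18 at 1.98 CPM. Corrected Ltb was highest in tumors 18 and 27 (56.5 and 54.7 CPM), with 51.5 CPM in tumor 25 and 49.2 CPM in tumor 13. Corrected Lta no longer shared its order, with 1.37 CPM in tumor 25 and 1.61 CPM in tumor 13. The number of members at 1 CPM or above in every tumor was 34 instead of 32.

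**Figure D5:**
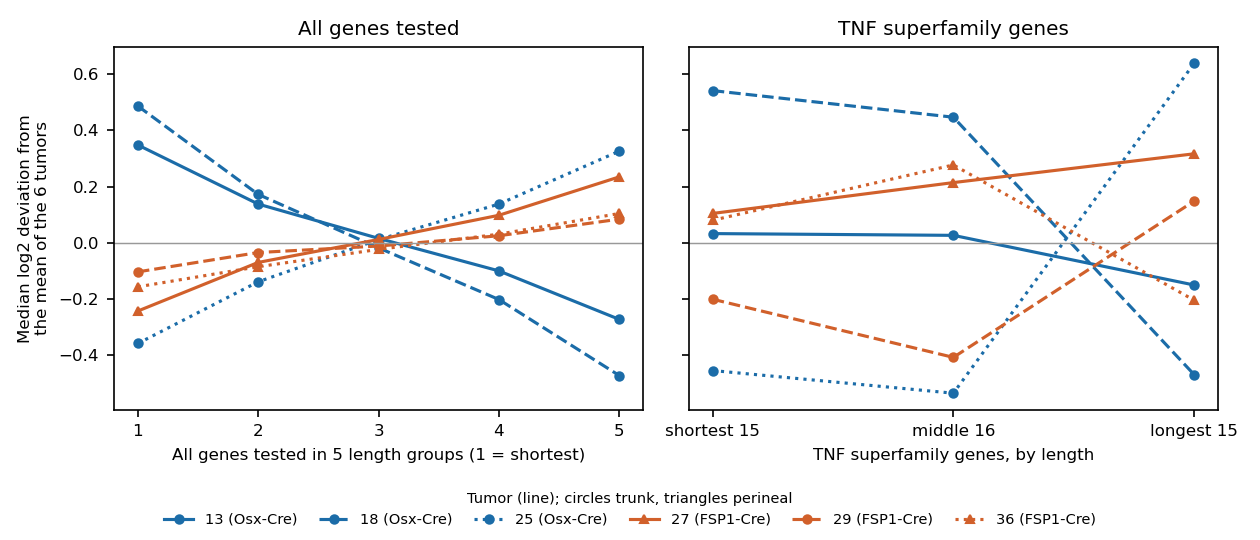
Median log2 deviation of each tumor from the mean of the 6 tumors, on the left over all genes tested in 5 groups by length and on the right over the 15 shortest, 16 middle and 15 longest TNF superfamily genes. Lines for tumors 13 and 18 fall with length and those for the other 4 tumors rise on the left, with tumors 18 and 25 farthest apart.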

How the data were processed

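RNA sequencing of 6 tumors was analysed, 3 per mouse line, grouped by the sample titles and, for site, by the labelled tissue. The authors deposited 1 table with gene counts, not normalized, and RPKM values for each tumor, on build mm10. The sources disagree on its making: the paper names HISAT2 and featureCounts with standard settings, and the submitters' processing notes name TopHat2 2.0.6 and HTSeq. Annotation and strandedness are not given in the sources used here. No column of values was left out. Of the members, 40 of 46 lay within 1000 bases of the RefSeq position on GRCm38.p6 at either end. Symbols were repeated in 43 entries, which were kept apart and hold no member. The deposited RPKM were used only to compare genes.

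The counts went into edgeR 4.0.16 under R 4.3.3 (filterByExpr, TMM, glmQLFit and glmQLFTest, Benjamini-Hochberg over all genes tested, threshold 0.05), FSP1-Cre;NT3 minus Osx-Cre;NT3 and perineal minus trunk, without covariates. Nothing in the labels says more than that each tumor is 1 mouse, so p-values measure the spread between these mice. The SE given with an edgeR log2 fold change is its size divided by the square root of the quasi-likelihood F statistic. The alternatives were DESeq2 1.42.0, library sizes alone, upper-quartile scaling, no filter, at least 10 counts in every tumor, halved counts, line and site in 1 model, trunk tumors or FSP1-Cre;NT3 tumors alone, and each tumor left out. Added once the data had been seen were DESeq2 without each tumor and an offset for a lowess trend (span 0.3) with log2 gene length. The members and all gene lists were chosen with earlier results of these data known. Values per tumor are given for members with a mean of at least 1 CPM, an unadjusted p under 0.05 or, with a mean of at least 0.5 CPM, a 10-fold range. Cd40lg, Eda and Tnfrsf13b fall outside this rule and were chosen after their values were seen. Other members are given by range or when near 0. Of adaptors and markers, those with an unadjusted p under 0.05 are named, and 2 marker genes are not reported here. The tests were first run on simulated counts with 200 changed genes: between lines edgeR found 39.5%, 64% and 85% at 4, 8 and 16-fold, at the cost of 9, 5 and 12 unchanged ones in runs of 16189, 16198 and 16219 genes, and DESeq2 71.5%, 83.5% and 93.5%, with 91, 76 and 96. Between sites edgeR found 35.5%, 64% and 81.5%, at the cost of 4, 6 and 18 in runs of 16329, 16354 and 16347 genes. DESeq2 found 71.5%, 83.5% and 92.5% between sites, at the cost of 107, 89 and 97 unchanged ones. For both comparisons the counts were simulated with the filter and the spread of the line comparison. Total counts of 51824408 to 163297772 put 3 counts at 0.0184 to 0.0579 CPM, a limit that covers counting error only. Promoter sequences came from RefSeq, and no protein sequence was used.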

Additional observations from a re-analysis of the deposited data

Results flagged for a closer look

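In 7 cases a single tumor stood far from the rest of its group in a member with a mean of at least 1 CPM, judged by its gap to the next tumor against the whole range of log2 CPM (Dixon's 95% limit). The search covered 82 values, 41 genes over all 6 tumors and over the 4 trunk tumors, and chance gives about 1 flag in 20, or 4.1. The 4 trunk tumors are among the 6, so these values are not independent. GITR and TWEAK were each flagged in both sets for the same tumor, 25. Tumor 25 was lowest for GITR (Tnfrsf18), at 11.5 CPM with the next tumor at 19.1 CPM among all 6 and at 20.9 CPM on the trunk. Tumor 25 was also lowest for TWEAK (Tnfsf12), at 3.77 CPM with the next at 6.63 CPM among all 6 and at 6.69 CPM on the trunk. For osteoprotegerin (Tnfrsf11b), tumor 25 was highest of the trunk tumors, at 72.0 CPM with the next at 21.6 CPM. CD137 (Tnfrsf9) was highest of the trunk tumors in tumor 18, at 11.7 CPM with the next at 2.69 CPM. XEDAR (Eda2r) was lowest in tumor 36, at 14.4 CPM with the next of the 6 at 25.0 CPM. The search used CPM without the length correction, and Dixon's limit was not tested on corrected values. Corrected, the next lowest after tumor 25 was tumor 18 for GITR (14.6 and 15.8 CPM) and TWEAK (4.24 and 5.72 CPM). Corrected XEDAR had 13.3 CPM in tumor 36 and 23.8 CPM in tumor 25, the next. On the trunk, corrected osteoprotegerin had 70.5 CPM in tumor 25 with the next at 21.6 CPM. Corrected CD137 had 10.97 CPM in tumor 18 with the next at 2.72 CPM. Summed T cell markers were lowest in tumor 25 (64.6 CPM) and highest in tumor 18 (228 CPM), and their part in the GITR and CD137 values was not tested.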

How the results depend on the processing

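No paired analysis was possible because the mouse numbers in the titles are not shared between lines or sites. The count of members past the threshold was 0 under every alternative with edgeR and with DESeq2 on all 6 tumors. With DESeq2 and 1 tumor left out it ranged from 0 to 3 between lines (3 without tumor 25, 1 without tumor 27) and from 0 to 3 between sites (3 without tumor 18, 1 without tumor 25, 1 without tumor 27). Over all genes, DESeq2 called 420 between lines and 605 between sites where edgeR called 0 in both. With tumors 13, 18, 25, 27, 29 and 36 left out in turn, DESeq2 called 236, 499, 3650, 460, 731 and 196 genes between lines and 318, 649, 669, 1492, 731 and 14 between sites, and edgeR called 0 between lines and from 0 to 567 between sites, 567 without tumor 27 and 2 without tumor 25. Of the adaptors and regulators DESeq2 called 3 between lines without tumor 25 (Cflar, Rnf31 and Tank) and 1 between sites without tumor 27 (Birc2), and 0 in the other fits. The cause of these differences was not tested. Members at 1 CPM or above in every tumor numbered from 32 to 34. The 14 fold changes recomputed, those with an unadjusted p under 0.1 or no overlap, kept their direction in all 294 values and crossed the threshold in 6, all with DESeq2 and 1 tumor left out. These 14 were picked by such values in the same data, so the kept direction is no independent check. Over all 46 members, the length correction changed the sign of 4 between lines and 3 between sites. Without tumor 29 the line and site groups are the same tumors. With 3 tumors a line and 2 perineal tumors, the number of mice limits the precision. Line, strain background and latency cannot be told apart.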
